A study of Mus musculus with 2 samples.

Results

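The genes described here are 59 genes of DNA replication and cell division, 27 of S phase and 32 of G2 phase and mitosis (G2/M), taken as a named list out of the 23906 genes counted in a brain library and the 23156 genes counted in a lung library. Both libraries came from adult mice of about 6 weeks that carry a Nes-GFP transgene, in which GFP is driven by Nestin regulatory elements, and the GFP+ cells were sorted from dissociated brain or lung before single-cell capture. The labels give the strain as C57BL/6 for both tissues, whereas the methods name CD1 mice or their mixtures with C3H as the stock bred to the transgenic line, and no further allele or treatment is labelled. There was 1 library per tissue, and the sources used here do not say how many mice went into each, so no comparison has a replicate and no p-value is given. The study's methods state a limit of under 4000 genes per barcode and a clustering on genes from which those annotated to the cell cycle had been trimmed, whereas all barcodes above the lower limits were kept here. The tables hold 4640 brain and 5981 lung barcodes, which are also the cell numbers shown in the study, while the stated limits leave 4151 and 5608, so it is unclear whether the upper limit was applied.

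A dividing cell copies its DNA in S phase and separates the copies in mitosis, and each step is served by genes that are switched on for that step. The retinoblastoma family holds E2F factors in check until G1 cyclins and their kinases release them, after which E2F factors drive the replication genes, and the mitotic genes follow later through the MuvB complex with B-Myb and FoxM1, which acts at CHR elements. In the subventricular zone of the adult mouse brain most neural stem cells are quiescent (qNSC), some are activated (aNSC) and divide, and they give rise to neuroblasts (NB), of which the younger ones still divide, while oligodendrocyte progenitor cells (OPC) divide slowly across the brain and mature oligodendrocytes (mOL) do not. In the lung, Nestin-driven reporters mark cells of the vessel wall such as pericytes and smooth muscle cells, which divide little in a healthy adult.

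The S phase list covers the replicative helicase (Mcm2, Mcm3, Mcm4, Mcm5, Mcm6 and Mcm7), the origin factors that load or activate it (Cdc6, Cdc45 and Gins2), the enzymes that make DNA precursors (Rrm1, Rrm2 and Tyms), proteins of the replication fork and its checkpoint and repair (Pcna, Rfc2, Pola1, Fen1, Tipin, Clspn and Exo1), proteins that handle histones, histone mRNA or chromatin (Nasp, Slbp, Chaf1b and Hells), and cyclin E2 (Ccne2), the repressive E2F factor E2f8, the ubiquitin ligase adaptor Dtl and the chromatin protein Cdca7. The G2/M list covers the mitotic cyclins, their kinase and an activator of cyclin destruction (Ccna2, Ccnb1, Ccnb2, Cdk1 and Cdc20), mitotic kinases and the chromosomal passenger complex (Aurka, Aurkb, Plk1, Bub1, Bub1b, Ttk, Birc5 and Cdca8), centromere and kinetochore proteins (Cenpa, Cenpe, Cenpf, Ndc80 and Nuf2), spindle proteins and motors (Tpx2, Hmmr, Tacc3, Nusap1, Kif11, Kif20b, Kif23 and Kif2c), proteins of chromosome structure (Top2a, Smc4, Hmgb2 and Mki67), and the cytokinesis scaffold Anln with Cdca3. The 59 genes lie on 17 chromosomes, and 11 of them (Mcm7, Fen1, Gins2, Cdc45, Rfc2, Ccne2, Ccna2, Cdc20, Cdca8, Nusap1 and Tacc3) overlap a protein-coding gene on the other strand, so that their counts are less certain where the counting did not use strand.

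The promoters show what the members share beyond their place in the cycle, and 8 are printed because E2F and CHR letters were found at different shares in the promoters of the 2 lists. RefSeq promoter windows (build GRCm38.p6, 250 bases before to 50 bases after each start) were found for 49 of the 59 members. Searched on both strands, an E2F element (TTTCCCGC, TTTGGCGC, TTTCGCGC or GCGGGAA, where the last is also held within the reverse complement of the first) was in 13 of 23 S phase windows (56.5%) and 1 of 28 G2/M windows (3.57%), against 5.33% of all 32851 windows. The CHR element (TTTGAA or TTCGAA, neither of which holds or is held in an E2F word) was in 26.1% of S phase windows, 78.6% of G2/M windows and 19.2% of all windows. A CCAAT box was about as frequent in the S phase windows (69.6%) as in the G2/M windows (71.4%), against 37.4% of all, and a CHR element together with a CCAAT box was in 21.7%, 64.3% and 7.52%. These are matches of letters and not measured binding sites, and a window without a match says only that these letters are not in it.

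The 150 bases before the start are given 5′ to 3′ on the gene's strand, with matches to the E2F, CHR and CCAAT letters in capitals, for the S phase members with the most counts among those with 1 window and an E2F match within these bases, and for the G2/M members with the most counts and 1 window. They lie at chr2:72476069-72476218 on the plus strand (Cdca7), chr7:102441545-102441694 on the plus strand (Rrm1), chr1:128359706-128359855 on the minus strand (Mcm6), chr19:38930840-38930989 on the plus strand (Hells), chr11:99024190-99024339 on the minus strand (Top2a), chr8:57511693-57511842 on the plus strand (Hmgb2), chr1:189688087-189688236 on the minus strand (Cenpf) and chr7:135716380-135716529 on the minus strand (Mki67).
Cdca7: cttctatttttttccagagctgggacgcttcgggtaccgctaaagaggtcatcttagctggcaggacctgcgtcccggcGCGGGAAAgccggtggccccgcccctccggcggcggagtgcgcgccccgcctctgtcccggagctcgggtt
Rrm1: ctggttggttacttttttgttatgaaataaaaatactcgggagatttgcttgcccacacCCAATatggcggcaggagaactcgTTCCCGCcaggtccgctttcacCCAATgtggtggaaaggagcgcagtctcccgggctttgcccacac
Mcm6: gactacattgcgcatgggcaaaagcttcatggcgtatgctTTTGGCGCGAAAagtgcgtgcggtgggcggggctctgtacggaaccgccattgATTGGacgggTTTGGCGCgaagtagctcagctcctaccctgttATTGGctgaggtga
Hells: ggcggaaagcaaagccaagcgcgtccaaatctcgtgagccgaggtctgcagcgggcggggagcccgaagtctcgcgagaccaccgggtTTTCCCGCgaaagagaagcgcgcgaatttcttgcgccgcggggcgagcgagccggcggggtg
Top2a: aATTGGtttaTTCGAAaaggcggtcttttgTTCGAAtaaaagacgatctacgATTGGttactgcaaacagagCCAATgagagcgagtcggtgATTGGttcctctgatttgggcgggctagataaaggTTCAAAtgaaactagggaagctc
Hmgb2: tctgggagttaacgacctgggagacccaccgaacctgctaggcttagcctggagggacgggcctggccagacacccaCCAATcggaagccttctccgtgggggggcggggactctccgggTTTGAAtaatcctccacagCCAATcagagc
Cenpf: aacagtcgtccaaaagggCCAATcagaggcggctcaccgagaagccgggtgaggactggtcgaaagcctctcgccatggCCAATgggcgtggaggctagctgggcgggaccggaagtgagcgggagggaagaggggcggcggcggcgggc
Mki67: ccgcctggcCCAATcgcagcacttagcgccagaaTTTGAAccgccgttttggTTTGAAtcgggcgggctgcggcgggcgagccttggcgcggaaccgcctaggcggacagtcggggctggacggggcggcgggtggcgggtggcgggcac
Mcm6 held 2 marked E2F runs in these bases, with overlapping matches counted as 1 run, whereas Cdca7, Rrm1 and Hells held 1 each. Top2a held 3 CHR and 4 CCAAT runs, Mki67 held 2 CHR runs, and Cenpf held CCAAT boxes without a CHR match in these bases.

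The brain library held 26221173 unique molecular identifier (UMI) counts in 4640 barcodes and the lung library 36816962 in 5981, and 4569 and 5915 barcodes had more than 200 genes and under 40% mitochondrial counts, with medians of 4487 and 5747 UMIs. The libraries shared 15 barcode sequences. Cells were put into classes by the summed expression of marker genes, none of which is a member, and the classes are called gated because this scoring rule, unlike the markers, was set after the data had been seen. Each class was led by its own markers and by no other class's markers, with between 1 and 8 of its own among its 10 leading genes. The weakest was the lung epithelial gate, led by Ccl21a, Cd74, Krt17, Krt5 and Krt14, with 1 of its own markers among its 10 leading genes. The lung T cell gate used markers of T cells and thymocytes together. It was led by Trbc1, Trbc2, Cd3d, Cd3g, Lck and Rag1, of which Rag1 encodes a recombinase of immature lymphocytes. The name T cell-gated therefore does not separate T cells from thymocytes. Of the members, Mcm3 alone was among the 10 leading genes of any class, that of the aNSC-gated cells, which also held a median of 7 of the 12 qNSC/astroglia markers. 271 brain (5.93%) and 662 lung (11.2%) barcodes passed no gate, 1109 and 1436 passed more than 1, and no doublet caller was run.

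All 59 members had counts in both libraries, and together they held 172194 UMIs in brain and 93028 in lung, or 6600.3 and 2541 CPM (counts scaled to a total of 1000000). Counts are of 3′ ends, 1 per molecule, and were not divided by gene length. Fen1, the flap endonuclease of Okazaki fragment processing, had only 4 brain and 2 lung UMIs and was too low for any comparison. It overlaps Tmem258 on the other strand. The other 26 S phase members had 347 (Ccne2) to 10278 (Nasp) UMIs in brain and the G2/M members 798 (Ttk) to 15206 (Top2a). Intervals given below are exact 95% intervals that cover counting error only, since each class comes from 1 library.

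In brain, both lists stood highest in aNSC-gated cells, next in NB-gated cells, and far lower in OPC-, qNSC/astroglia- and mOL-gated cells. The S phase list summed to 5286 CPM (95% interval 5214 to 5359.9) in 350 aNSC-gated cells and to 2839 CPM (95% interval 2806 to 2873) in 1867 NB-gated cells. In the 312 OPC-gated cells it summed to 718 CPM (95% interval 684 to 754), in the 785 qNSC/astroglia-gated cells to 405 CPM (95% interval 384 to 428) and in the 230 mOL-gated cells to 364 CPM (95% interval 341 to 387). Among these 5 classes the aNSC-, NB- and OPC-gated levels stood apart from each other and from the rest beyond counting error, whereas the qNSC/astroglia- and mOL-gated intervals overlapped. The G2/M list summed to 11778 CPM (95% interval 11669.5 to 11888) in aNSC-gated, 6218 CPM (95% interval 6169.6 to 6268) in NB-gated and 821 CPM (95% interval 784 to 859) in OPC-gated cells. Its level was 485 CPM (95% interval 461 to 509) in qNSC/astroglia-gated and 469 CPM (95% interval 443 to 496) in mOL-gated cells, which do not differ beyond these intervals.

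The balance between the lists also differed between classes. The G2/M list was 2.23 times the S list in aNSC-gated and 2.19 times in NB-gated cells, against 1.14 in OPC-gated, 1.2 in qNSC/astroglia-gated and 1.29 in mOL-gated cells. Without the barcodes of 4000 or more genes the aNSC-gated lists were nearer to each other, at 4549 CPM (S) and 6536 CPM (G2/M), and the NB-gated ones were at 2451 and 4749 CPM. Among the other brain classes the S list lay between 286 CPM (fibroblast-gated) and 616 CPM (mural-gated) and the G2/M list between 148 CPM (fibroblast-gated) and 1119 CPM (mural-gated). The mural-gated level rested on 2 barcodes with 4000 or more genes, without which it was 417 and 243 CPM. Likewise 8 such barcodes held much of the qNSC/astroglia-gated signal, since without them its lists were at 298 and 206 CPM.

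**Figure D1:**
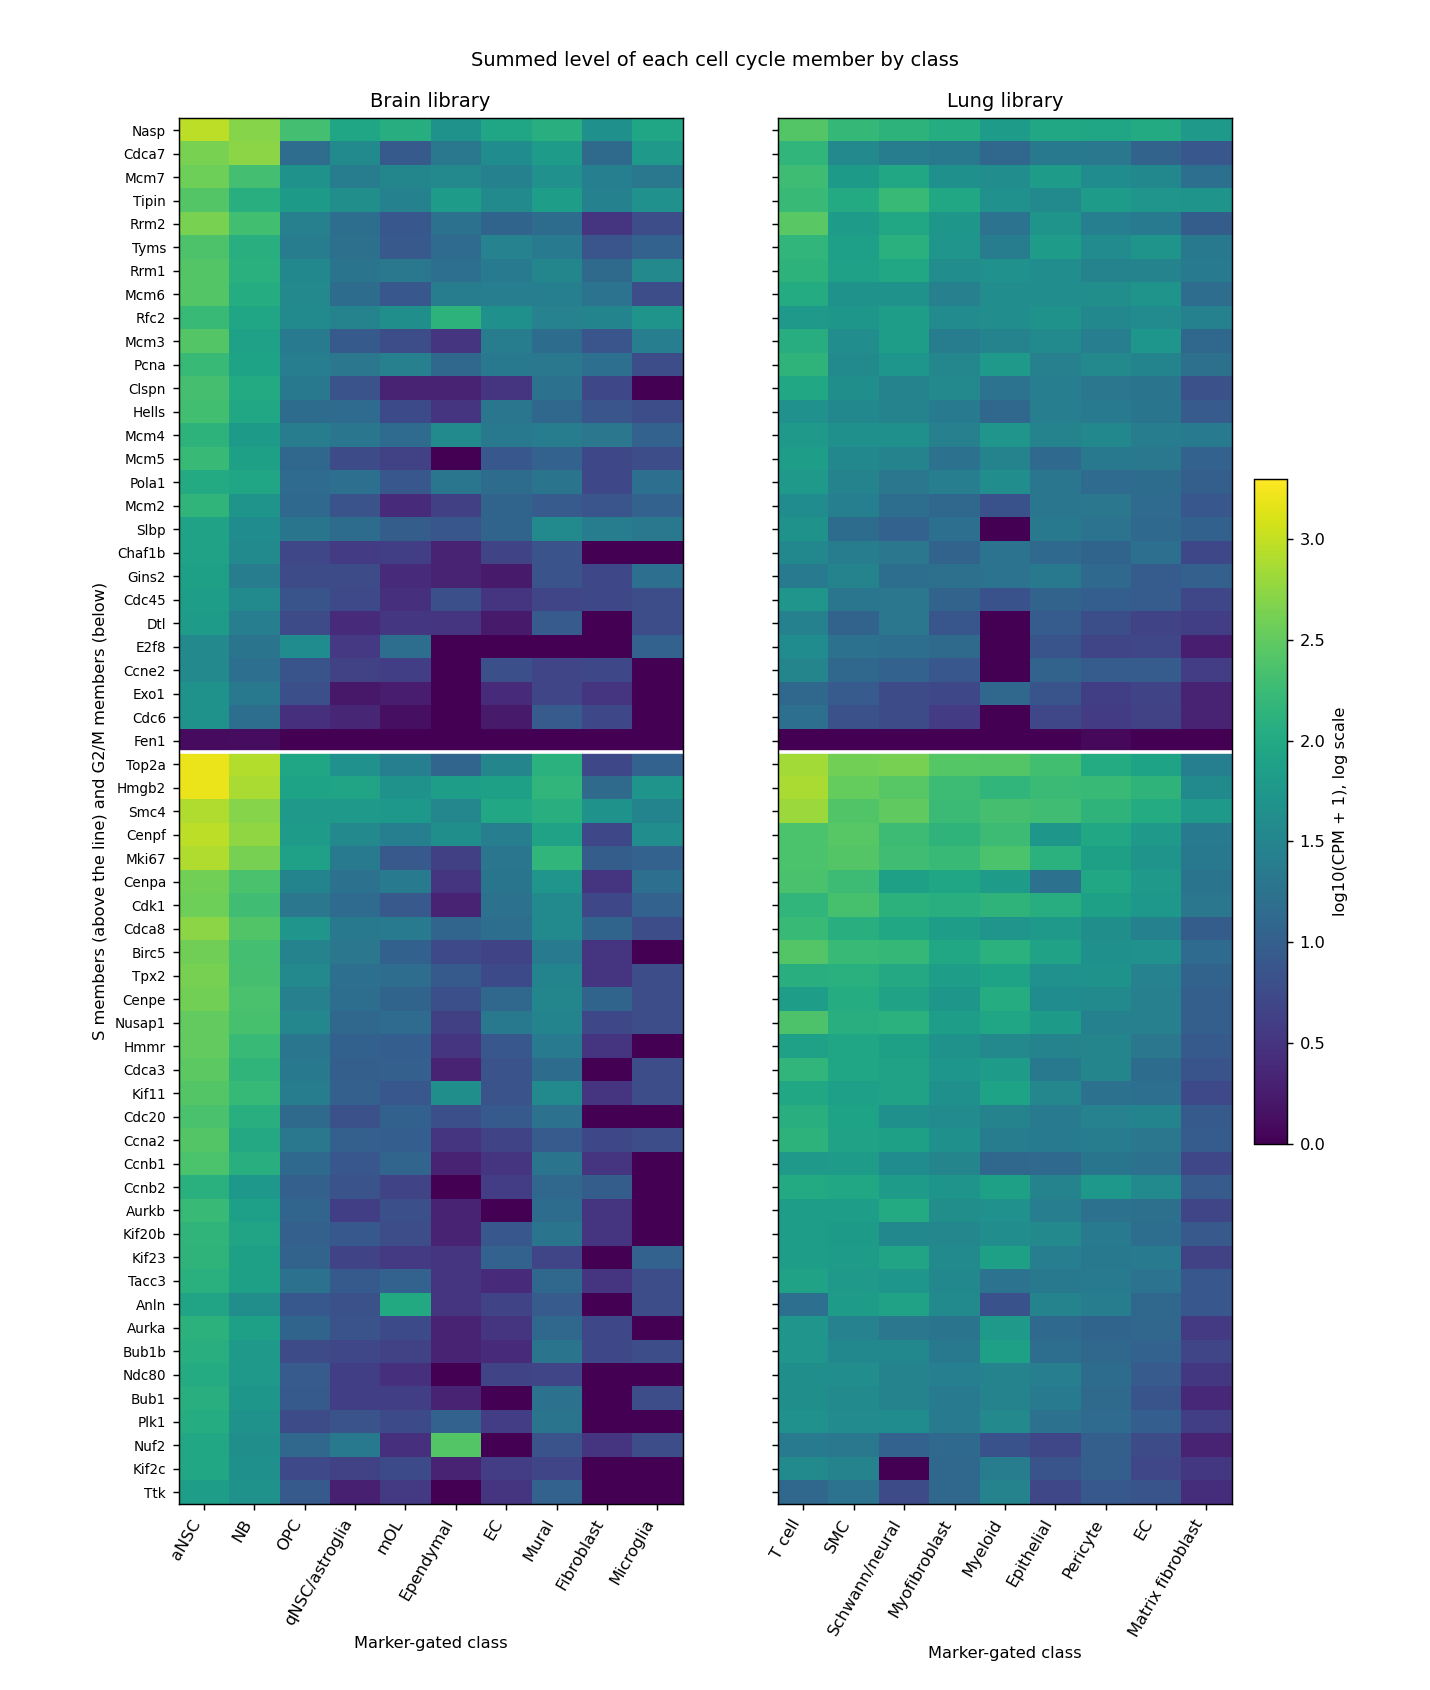
Level of each of the 59 members (rows, S phase above and G2/M below) in each gated class of brain and lung (columns), as log10(CPM + 1) of the summed counts, from dark (low) to bright (high). In brain the columns of aNSC-gated and NB-gated cells are brightest, and in lung that of T cell-gated cells, while Fen1 is dark throughout and Nuf2 stands out in ependymal-gated cells at 257 CPM.

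Most aNSC-gated cells held several mitotic transcripts, whereas most NB-gated cells did not. After each cell was thinned to 2000 UMIs, the share with UMIs of at least 3 G2/M genes was 72.1% (245 of 340 cells, 95% interval 67 to 76.8%) in aNSC-gated cells, 22.9% (407 of 1778 cells, 95% interval 21 to 24.9%) in NB-gated cells and 6.3% (16 of 254 cells, 95% interval 3.64 to 10.03%) in OPC-gated cells. It was 1.43% (9 of 628 cells, 95% interval 0.657 to 2.7%) in qNSC/astroglia-gated cells. In mOL-gated cells, a class that is known not to divide and serves as a reference level here, it was 2.67% (5 of 187 cells, 95% interval 0.874 to 6.13%), so the qNSC/astroglia-gated share was not above that reference and the OPC-gated interval overlapped it. Of all mOL-gated barcodes 161 of 230 passed more than 1 gate, as did 211 of 312 OPC-gated ones, and where the mOL-gated counts came from was not tested. The median depths before thinning were 10338, 4567, 6754, 3792 and 12694 UMIs, in the order aNSC, NB, OPC, qNSC/astroglia and mOL, and without thinning the shares were 87.4, 29.9, 13.8, 3.69 and 20%. Thinning left out 10, 89, 58, 157 and 43 shallower cells in that order.

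More cells held S phase transcripts than mitotic ones. The thinned share with at least 3 S phase genes was 81.8% (278 of 340 cells, 95% interval 77.2 to 85.7%) in aNSC-gated, 39.1% (696 of 1778 cells, 95% interval 36.9 to 41.5%) in NB-gated and 13% (33 of 254 cells, 95% interval 9.11 to 17.8%) in OPC-gated cells, beside 3.18% in qNSC/astroglia-gated and 4.81% in mOL-gated cells. In aNSC-gated cells 219 passed both lists, 59 the S list alone and 26 the G2/M list alone. NB-gated cells were split otherwise, with 323 cells passing both, 373 the S list alone and 84 the G2/M list alone. Among OPC-gated cells the numbers were 11, 22 and 5. The S list holds members that were also counted in cells with few mitotic transcripts. In NB-gated cells 28.7% of the thinned Cdca7 UMIs and 47.6% of those of Nasp lay in cells with at least 3 G2/M genes. Whether cells that passed the S list alone were in S phase was not tested. The NB-gated cells made up 45.3% of the thinned brain cells, 56.6% of those with at least 3 G2/M genes and 63.5% of those with at least 3 S phase genes, and the aNSC-gated cells made up 8.67, 34.1 and 25.4%. Of the 105 deep enough barcodes that passed no gate, 26.7% held at least 3 G2/M genes.

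**Figure D2:**
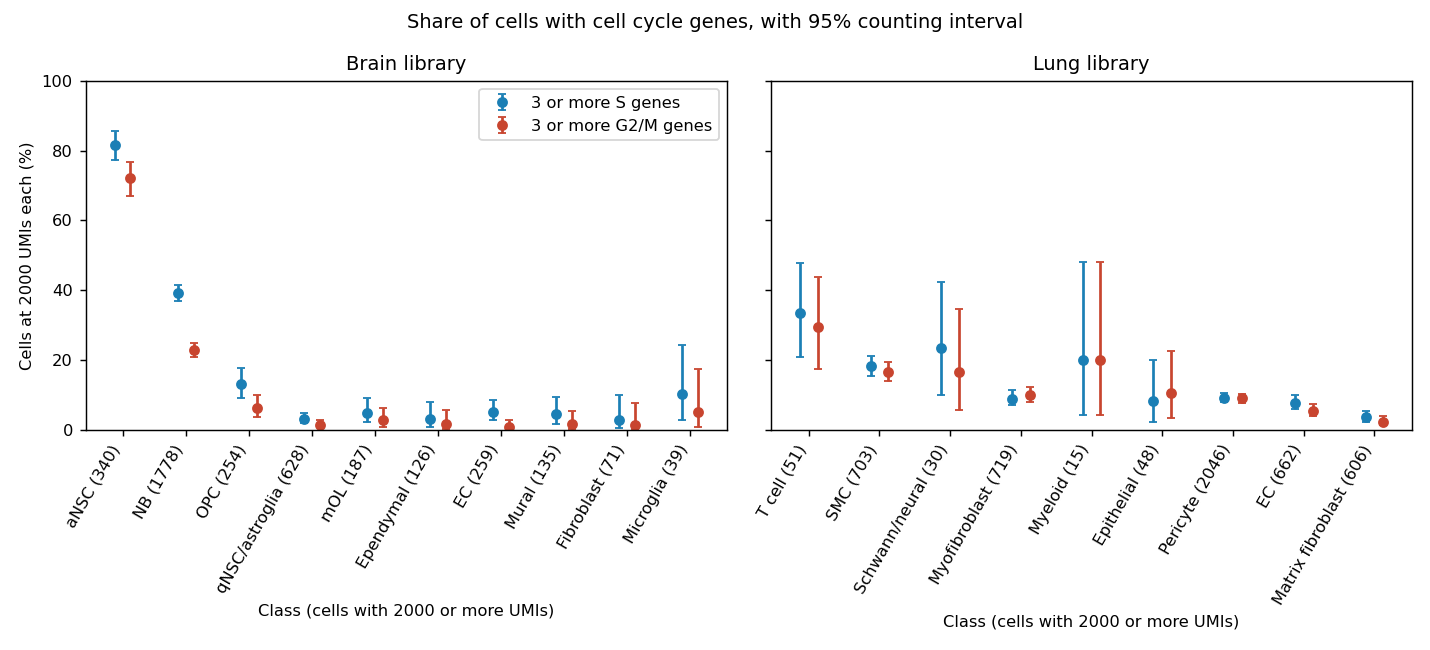
Share of cells, in percent, with UMIs of at least 3 G2/M genes and of at least 3 S phase genes after thinning to 2000 UMIs, by gated class in brain and lung, with exact 95% binomial intervals. aNSC-gated cells reach 72.1% for G2/M, NB-gated cells 22.9% and the lung T cell-gated cells 29.4% on 51 cells.

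The first comparison asked how the members stood in aNSC-gated against qNSC/astroglia-gated cells, a gate led by genes that astroglia share with quiescent stem cells, and every member that could be compared was higher in aNSC-gated cells. A gene was counted as past the fold rule where the CPM ratio was at least 2, its interval excluded 1 and at least 10 UMIs were counted over both classes. All 58 of 58 members were higher past the rule (26 S phase and 32 G2/M), against 22.5% of all genes. The median log2 ratio was 3.94 for S phase members and 4.77 for G2/M members, against 0.12 over all genes. The summed S list was 13 (95% interval 12.3 to 13.8) times higher and the summed G2/M list 24.3 (95% interval 23.1 to 25.6) times higher, and single members ran from 4.61 (Nuf2) to 77.2 times (Exo1). Both ratios were larger still with barcodes under 4000 genes, gated anew (16.4 for S and 35.8 for G2/M), and without barcodes that passed more than 1 gate (20.5 and 70.5).

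Within the S phase list the MCM helicase genes were 7.01 (Mcm4) to 36.4 times (Mcm5) higher in aNSC-gated than qNSC/astroglia-gated cells. Mcm3 was at 259.8, 76.3, 21.7, 7.48 and 4.95 CPM in aNSC-, NB-, OPC-, qNSC/astroglia- and mOL-gated cells, and 2.18 to 25 CPM in the other 5 brain classes. Mcm7 was at 368, 203, 48.7, 24.3 and 32 CPM, and 20.04 to 45.4 in the other classes. Mcm3 was thus at about 25 CPM or less in every class other than aNSC- and NB-gated cells. Mcm7, which overlaps a coding gene on the other strand, kept 20 CPM or more in every class. Of the origin factors, Gins2, a subunit of the GINS complex of the active helicase, was at 73.6, 23.4, 4.87, 4.68 and 1.52 CPM, and 0.757 to 15 in the other classes. Cdc6, which loads the helicase in G1, was at 48.6, 14.6, 1.77, 1.25 and 0.381 CPM, and 0 to 7.89 in the other classes. Cdc6 had 185 UMIs in aNSC-gated and 4 in qNSC/astroglia-gated cells, and its ratio was 39 (95% interval 15 to 145).

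The precursor enzymes were higher by 14.5 (Rrm1) to 30.1 times (Rrm2). Rrm2, the S phase subunit of ribonucleotide reductase, was at 432, 197, 26.1, 14.3 and 6.86 CPM in aNSC-, NB-, OPC-, qNSC/astroglia- and mOL-gated cells, and 2.12 to 16.4 CPM in the other 5 brain classes. Tyms, the thymidylate synthase, was at 241, 117, 23.9, 15.6 and 7.24 CPM, and 6.36 to 28 in the other classes. Both were thus low in cells that do not divide and many times higher in aNSC-gated cells. Among the fork proteins the lowest ratio was that of Rfc2 (5.75, 95% interval 4.62 to 7.22) and the highest that of the exonuclease Exo1 (77.2, 95% interval 21.1 to 642).

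Pcna, the sliding clamp, was at 169.9, 80.3, 24.8, 19.3 and 26.7 CPM in aNSC-, NB-, OPC-, qNSC/astroglia- and mOL-gated cells, and 5.01 to 20.4 CPM in the other 5 brain classes. Rfc2, a subunit of the clamp loader, was at 169, 89.4, 36.3, 29.3 and 43.1 CPM, and 27.6 to 133 in the other classes. Tipin, which protects stalled forks with its partner Timeless, was at 264, 118, 61.5, 42.1 and 27.4 CPM, and 27.6 to 69.1 in the other classes. All 3 were thus above 20 CPM in mOL-gated cells, which do not divide. Pola1, the catalytic subunit of the polymerase that primes replication, was at 103, 86.1, 13.3, 15 and 6.86 CPM, and 4.24 to 18.6 in the other classes. Nasp, a histone chaperone, was at 935, 503, 206, 86.7 and 114 CPM, and 44.5 to 118 in the other classes. It was the S phase member with the most UMIs in both libraries, and its aNSC to qNSC/astroglia ratio was 10.8 (95% interval 9.54 to 12.2).

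The G2/M members of chromosome structure were 13.7 (Smc4) to 35.5 times (Mki67) higher in aNSC-gated cells. Top2a, the topoisomerase that untangles sister chromatids, was at 1587, 819, 88.5, 45.2 and 25.5 CPM in aNSC-, NB-, OPC-, qNSC/astroglia- and mOL-gated cells, and 4.24 to 126 CPM in the other 5 brain classes. Mki67, the Ki-67 protein that coats mitotic chromosomes, was at 809, 414, 75.7, 22.8 and 7.24 CPM, and 3.27 to 146 in the other classes. Both were higher in aNSC- and NB-gated cells than in any other brain class, with aNSC to qNSC/astroglia ratios of 35.1 (95% interval 29.8 to 41.7) and 35.5 (95% interval 28.2 to 45.5). Hmgb2, a chromatin protein, was at 1610.1, 748, 81.9, 82.6 and 47.6 CPM, and 12.7 to 148 in the other classes. Smc4, a condensin subunit, was at 805, 504, 59.3, 58.6 and 57.2 CPM, and 30.1 to 116 in the other classes. These 2 kept a clear level in most classes.

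The mitotic cyclins, Cdk1 and Cdc20 were 20.9 (Ccnb2) to 39.6 times (Cdc20) higher. Cdk1, the kinase that drives entry into mitosis, was at 377, 195, 19.5, 13.1 and 7.24 CPM in aNSC-, NB-, OPC-, qNSC/astroglia- and mOL-gated cells, and 1.09 to 35.5 CPM in the other 5 brain classes. Its partner Ccnb1, cyclin B1, was at 228, 116, 12.4, 6.86 and 11.1 CPM, and 0 to 17.8 in the other classes. Kinase and cyclin thus had the same order in the first 3 classes and low levels in the other 2. The kinases and passenger proteins were higher by 18.7 (Plk1) to 74.5 times (Ttk). Cdca8, the borealin subunit of the passenger complex, was at 528, 253, 50.9, 20.6 and 21.7 CPM, and 5.01 to 37.5 in the other classes. Ttk, a spindle checkpoint kinase, was at 69.7, 47.7, 7.53, 0.936 and 2.67 CPM, and 0 to 9.87 in the other classes, with only 3 UMIs in qNSC/astroglia-gated cells, so its ratio carries an interval of 25.2 to 364.

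Of the centromere proteins, Cenpa, the histone variant that marks centromeres, was at 400.0, 227, 29.7, 16.2 and 21.7 CPM in aNSC-, NB-, OPC-, qNSC/astroglia- and mOL-gated cells, and 2.12 to 51.3 CPM in the other 5 brain classes. Cenpe, a kinetochore motor, was at 390.0, 224, 26.1, 14.7 and 10.7 CPM, and 5.01 to 31.6 in the other classes. Cenpf, a large kinetochore protein, was at 945, 571, 62.9, 34.3 and 25.9 CPM, and 4.24 to 78.9 in the other classes. Their ratios lay between 4.61 (Nuf2) and 34.5 (Ndc80), and Nuf2 is taken up again below. The spindle proteins and motors had a narrow spread, from 16.6 (Tacc3) to 37.1 times (Kif23). Tpx2, which activates Aurora A on the spindle, was at 415, 210.2, 35, 15.3 and 14.1 CPM, and 2.12 to 29.6 in the other classes. Hmmr, a spindle protein and hyaluronan receptor, was at 323, 166, 18.6, 9.67 and 8.77 CPM, and 0 to 21.7 in the other classes.

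NB-gated cells held most members at near 0.5 times the aNSC-gated level, with Cdca7 as the exception. Against qNSC/astroglia-gated cells 58 of 58 members were higher past the rule, against 22.8% of all genes, with summed ratios of 7.0 (95% interval 6.62 to 7.41) for the S list and 12.8 (95% interval 12.2 to 13.5) for the G2/M list. The G2/M ratio was 26.3 with barcodes under 4000 genes and 33.8 without barcodes that passed more than 1 gate. Against aNSC-gated cells 30 of 58 members were lower past the rule (19 S phase and 11 G2/M), against 11.6% of all genes, and none was higher past it. The median log2 ratio over members was -1.03, against -0.06 over all genes, and the summed ratios were 0.537 (95% interval 0.527 to 0.547) for S and 0.528 (95% interval 0.522 to 0.534) for G2/M. Many members lay near the 2-fold limit, so this count is sensitive to it, and with barcodes under 4000 genes 16 members were lower, against 12.6% of all genes among those barcodes.

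The lowest NB to aNSC ratios were those of 2 genes that act at origins, Mcm3 at 0.294 (95% interval 0.267 to 0.323) and Cdc6 at 0.299 (95% interval 0.239 to 0.374). The whole MCM group lay between 0.294 and 0.551 (Mcm7), with 5 of 6 past the rule, while the spindle proteins and motors lay between 0.48 (Kif2c) and 0.684 (Nusap1), with 1 of 8 past it, against 11.6% of all genes. At the other end stood Cdca7 at 1.2 (95% interval 1.14 to 1.27) and Pola1 at 0.836 (95% interval 0.741 to 0.944). Cdca7, a zinc finger protein of a chromatin remodelling complex with Hells, was at 437, 526, 14.2, 36.2 and 7.62 CPM in aNSC-, NB-, OPC-, qNSC/astroglia- and mOL-gated cells, and 12.7 to 65.1 CPM in the other 5 brain classes. It was the only member above 30 UMIs whose interval lay above 1, and 71.5% of its brain UMIs were in NB-gated cells. Its partner Hells did not follow it, with an NB to aNSC ratio of 0.467 (95% interval 0.424 to 0.514).

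**Figure D3:**
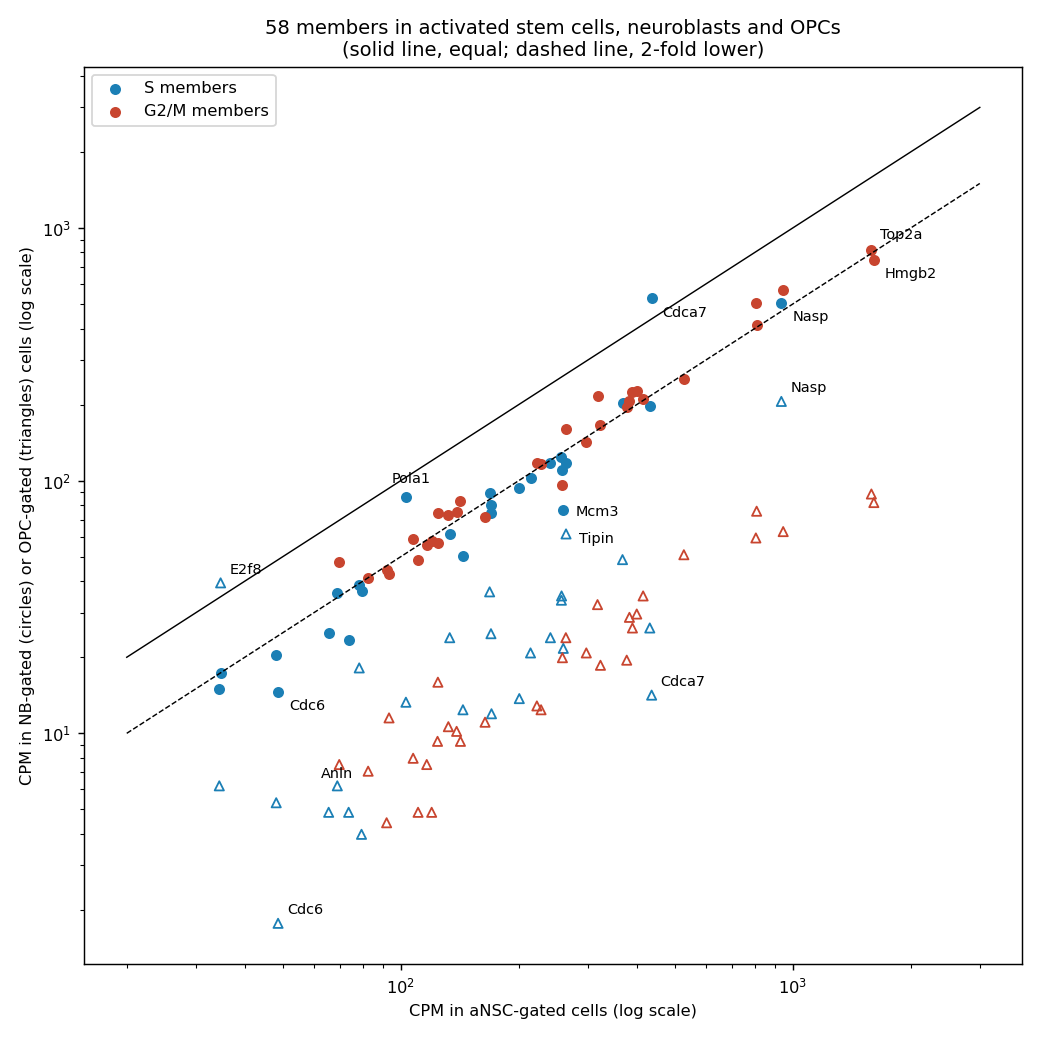
CPM of 58 members (Fen1 left out) in NB-gated cells (circles) and OPC-gated cells (triangles) against CPM in aNSC-gated cells, on log axes, with S phase members in blue and G2/M members in red, a solid line at equal level and a dashed line 2-fold lower. Cdca7 is the one circle above the solid line and E2f8 the one triangle above it, most other circles lie near the dashed line and all other triangles below it.

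Within the NB-gated cells fewer cells passed either list where more late neuroblast markers were held. Thinned cells were split by how many of Dcx, Stmn2, Tubb3 and Nrxn3, genes of differentiating neurons, they held, a split added after the data had been seen. The share with at least 3 G2/M genes was 88.9% (16 of 18 cells, 95% interval 65.3 to 98.6%) with 1 of these markers, 77% (67 of 87 cells, 95% interval 66.8 to 85.4%) with 2, 38.6% (143 of 370 cells, 95% interval 33.7 to 43.8%) with 3 and 13.9% (181 of 1303 cells, 95% interval 12.1 to 15.9%) with all 4. The share with at least 3 S phase genes went from 83.3 to 71.3, 50.3 and 33.2%, a smaller difference. Cells with Top2a made up 83.3, 63.2, 31.9 and 12.4% and cells with Hmgb2 94.4, 77, 44.6 and 23.9%. Cdca7 differed from both, since its share of cells was 77.8, 70.1, 59.7 and 58.3%. The shares of Mki67 and Nasp were also lower at each step. Those of Mcm6, Cenpf and E2f8 were highest with 2 markers, at 32.2, 59.8 and 6.9%, against 11.1, 50 and 5.56% with 1. With all 4 markers they were 9.36, 10.3 and 1.15%. The first step held only 18 cells, and median depths before thinning were 10022, 9233, 5348 and 4431 UMIs, so depth moved with the steps and its part in them, beyond what thinning removes, was not tested.

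**Figure D4:**
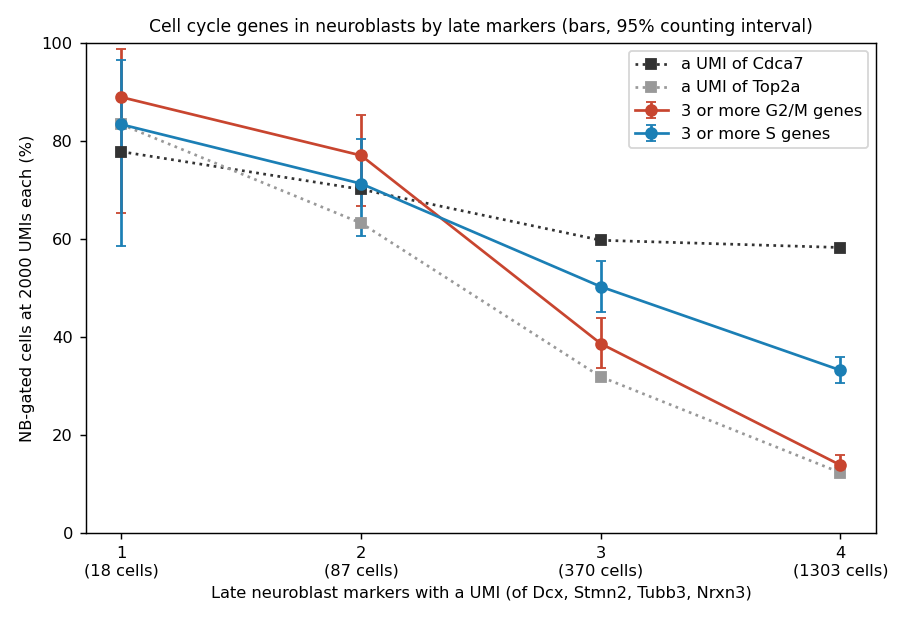
Share of thinned NB-gated cells, in percent, that held at least 3 G2/M genes or at least 3 S phase genes (solid lines, with exact 95% binomial intervals) or a UMI of Top2a or Cdca7 (dotted lines), by the number of late markers (Dcx, Stmn2, Tubb3 and Nrxn3) the cell held. The G2/M share goes from 88.9% to 13.9%, whereas Cdca7 stays at 58.3% or more.

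A like split of the qNSC/astroglia-gated cells by activated stem cell markers showed no such slope, but it could not have shown one freely. The markers were those of the aNSC gate, and each barcode went to its highest-scoring gate. Cells that scored highest for these markers had thus already been placed in the aNSC-gated class, and no conclusion is drawn from the split. The share with at least 3 G2/M genes was 1.29% (3 of 233 cells, 95% interval 0.266 to 3.72%) with none of the markers, 1.36% (4 of 294 cells, 95% interval 0.372 to 3.45%) with 1 and 1.08% (1 of 93 cells, 95% interval 0.0272 to 5.85%) with 2. The 8 cells with 3 or more held 1 such cell, too few to read.

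OPC-gated cells held far less of these genes than aNSC-gated cells and somewhat more than qNSC/astroglia-gated ones. Against qNSC/astroglia-gated cells 24 of 57 members were higher past the rule (10 S phase and 14 G2/M) against 20.6% of all genes, and 1, Cdca7, was lower, against 17.8% of all genes. The count of 24 became 14 with the median ratio of all genes set to 1, against 15.3% of all genes. It was also 14 with at least 50 UMIs, against 20.7%, and lower still at a 4-fold limit, where 8.45% of all genes passed. The median log2 ratio was 0.87 against 0.23 over all genes, and the summed ratios were 1.77 (95% interval 1.65 to 1.91) for S and 1.69 (95% interval 1.58 to 1.81) for G2/M. In qNSC/astroglia-gated cells 8 deep barcodes, all of which passed more than 1 gate, held 59.3% of the G2/M UMIs, and without them the class held 206 in place of 485 CPM of the G2/M list. When all barcodes of 4000 or more genes were left out and the others gated anew, the G2/M ratio was 5.06 and 37 members were higher, against 22.5% of all genes. The S ratio was then 2.76. The S and G2/M ratios were 3.36 and 8.18 without barcodes that passed more than 1 gate, which were 183 of 785 qNSC/astroglia-gated and 211 of 312 OPC-gated ones. Against aNSC-gated cells 57 of 58 members were lower past the rule, against 16.2% of all genes, with summed ratios of 0.136 (95% interval 0.129 to 0.143) for S and 0.0697 (95% interval 0.0665 to 0.073) for G2/M. The latter was 0.142 with barcodes under 4000 genes and 0.116 without barcodes that passed more than 1 gate. The lowest were Cdca7 at 0.0325 (95% interval 0.0221 to 0.046) and Cdc6 at 0.0364 (95% interval 0.00981 to 0.0948).

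E2f8 was the member that did not follow. It encodes an atypical E2F factor that represses E2F targets late in S phase, and it was at 34.7, 17.4, 39.4, 2.49 and 14.5 CPM in aNSC-, NB-, OPC-, qNSC/astroglia- and mOL-gated cells, and 0 to 10.02 CPM in the other 5 brain classes. Its OPC to aNSC ratio was 1.14 (95% interval 0.858 to 1.5), on 89 and 132 UMIs, and its OPC to qNSC/astroglia ratio was 15.8 (95% interval 7.68 to 37.7). In OPC-gated cells 6.25% of its 16 thinned UMIs lay in cells with at least 3 other G2/M genes, against 95.2% of 21 in aNSC-gated and 96.4% of 28 in NB-gated cells. The E2f8 counts of OPC-gated cells were thus mostly in cells with few mitotic transcripts. Tipin, with the next highest OPC to aNSC ratio, was at 0.233 (95% interval 0.194 to 0.279).

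OPC-gated cells with several mitotic transcripts were mostly those that held early progenitor genes. The OPC gate as a whole was led by genes of committed progenitors (Gpr17, C1ql1, Bmp4 and Neu4). Its cells were split by Pdgfra or Cspg4, the receptor and proteoglycan of progenitors, and by Gpr17, Neu4 or Bmp4, genes of cells committed to become oligodendrocytes. At least 3 G2/M genes were held by 16.7% (3 of 18 cells, 95% interval 3.58 to 41.4%) with early genes alone, by 14.1% (12 of 85 cells, 95% interval 7.51 to 23.4%) with both and by 0.662% (1 of 151 cells, 95% interval 0.0168 to 3.63%) with late genes alone. The late-only interval included the mOL-gated share of 2.67%, and the interval of the group with both lay above that value. UMIs of E2f8 were in 0, 4.71 and 7.28% of the 3 groups, on too few UMIs to order them. This split was added after the data had been seen, its groups hold 18, 85 and 151 cells, and the late-only cells were the deepest, with a median of 11003 UMIs against 7166 and 6134.

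A few members were highest in classes that do not divide. Nuf2, a subunit of the NDC80 complex that ties microtubules to kinetochores, was at 93.4, 42.8, 11.5, 20.3 and 1.91 CPM in aNSC-, NB-, OPC-, qNSC/astroglia- and mOL-gated cells, and 0 to 257 CPM in the other 5 brain classes. Its highest level, 257 CPM (95% interval 225 to 291), was in the 132 ependymal-gated cells, the ciliated cells that line the ventricles, where its complex partner Ndc80 had 0 UMIs, which allows a level of up to 3.27 CPM. None of the 21 thinned Nuf2 UMIs of the qNSC/astroglia-gated cells lay in a cell with at least 3 other G2/M genes, against 100% of 56 in aNSC-gated cells. Anln, a scaffold of the contractile ring, was at 82.6, 41.4, 7.08, 5.61 and 99.5 CPM, and 0 to 7.89 in the other classes. In brain it was thus highest in mOL-gated cells, at 99.5 CPM (95% interval 87.8 to 112), and 24.7% of its brain UMIs were there. Ependymal-gated cells also held Rfc2 at 133, Cenpf at 43.7 and Kif11 at 42.6 CPM.

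How closely a member's counts were tied to cells with several mitotic transcripts differed between the lists. Over all thinned brain cells, of which 18.3% held at least 3 G2/M genes, the share of a member's UMIs found in cells with at least 3 other G2/M genes had a median of 95.1% over the 32 G2/M members and 62.9% over 26 S phase members. Among S phase members it ran from 36% (Cdca7), 42.2% (Rfc2) and 46.6% (Mcm7) to 88% (Rrm2). The G2/M members with the lowest shares were Nuf2 (63.7%), Smc4 (71.1%), Anln (76.3%) and Hmgb2 (82.5%). In lung the medians were 93.7% and 47.8%, with Smc4 lowest of the G2/M members at 51% and Rfc2 lowest of the S phase members at 24.4%. E2f8 was the S phase member tied most closely to such cells in lung, at 96.8%, and a middling one in brain, at 61.9%. The cells were chosen by G2/M genes other than the one described, so the lists do not stand on an equal footing here.

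In lung, T cell-gated cells had the highest summed levels of both lists, and among the classes of 50 or more cells SMC-gated cells came next. Set side by side over all barcodes, the T cell-gated levels lay below those of aNSC- and NB-gated brain cells. T cell-gated cells had 0 barcodes of 4000 or more genes, and without such barcodes NB-gated cells were at 2451 CPM (S) and 4749 CPM (G2/M). Their G2/M level was then below the T cell-gated one, and their S level lay within its interval. The S list was at 2387 CPM (95% interval 2223 to 2559) and the G2/M list at 5116 CPM (95% interval 4875 to 5366) in the 108 T cell-gated cells. In the 750 smooth muscle (SMC)-gated cells they were at 1091 CPM (95% interval 1064 to 1118) and 3687 CPM (95% interval 3637 to 3738). The 764 myofibroblast-gated cells held 754 and 2138 CPM, the 2213 pericyte-gated cells 637 and 1338 CPM and the 704 endothelial (EC)-gated cells 646 and 998 CPM. Matrix fibroblast-gated cells (612) were lowest, at 347 and 341 CPM. Among the smaller gates the epithelial, Schwann/neural and myeloid ones held 749.8, 1249 and 620.5 CPM of the S list and 1569, 3098 and 2470.5 CPM of the G2/M list, on 50, 33 and 19 cells. Without barcodes of 4000 or more genes (6, 2 and 1) their G2/M lists were at 506, 2591 and 1248 CPM. In the larger classes the G2/M list was then at 1486 (SMC), 953 (myofibroblast), 1159 (pericyte), 657 (EC) and 216 CPM (matrix fibroblast). The myofibroblast-gated level was thus below the pericyte-gated one, as it was for the S list, at 525 against 613 CPM.

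The thinned share of cells with at least 3 G2/M genes was 29.4% (15 of 51 cells, 95% interval 17.5 to 43.8%) in T cell-gated cells, which were shallow, so that 57 of 108 could not be thinned. It was 16.5% (116 of 703 cells, 95% interval 13.8 to 19.5%) in SMC-gated, 9.87% (71 of 719 cells, 95% interval 7.79 to 12.3%) in myofibroblast-gated and 8.94% (183 of 2046 cells, 95% interval 7.74 to 10.3%) in pericyte-gated cells. EC-gated cells had 5.44% (36 of 662 cells, 95% interval 3.84 to 7.45%) and matrix fibroblast-gated cells 2.31% (14 of 606 cells, 95% interval 1.27 to 3.85%). The myofibroblast- and pericyte-gated shares thus did not differ beyond counting error. The pericyte-gated cells, the largest class, made up 34.8% of the thinned lung cells with at least 3 G2/M genes, the SMC-gated cells 22.1% and the barcodes of no class 14.8%, of which 23% passed.

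The lung comparisons set each class against the pericyte-gated cells. In T cell-gated cells 49 of 58 members were higher past the rule (23 S phase and 26 G2/M), against 13.7% of all genes, with summed ratios of 3.75 (95% interval 3.48 to 4.03) for S and 3.82 (95% interval 3.64 to 4.02) for G2/M. In SMC-gated cells 39 were higher (10 and 29), against 13.4% of all genes, with ratios of 1.71 (95% interval 1.65 to 1.77) and 2.76 (95% interval 2.7 to 2.82). The SMC-gated ratio was thus larger for the mitotic list over all barcodes, whereas with barcodes under 4000 genes, gated anew, the ratios were 1.39 and 1.28 and 1 member was higher, against 12% of all genes. In myofibroblast-gated cells 8 were higher (2 and 6), against 13.1% of all genes, a share near the background, and the summed ratios of 1.18 (95% interval 1.14 to 1.23) and 1.6 (95% interval 1.56 to 1.64) turned to 0.874 and 0.846 with barcodes under 4000 genes. In matrix fibroblast-gated cells 48 were lower (16 and 32), against 16.5% of all genes, with ratios of 0.544 (95% interval 0.517 to 0.572) and 0.255 (95% interval 0.243 to 0.267). EC-gated cells had 3 of 58 members lower, all G2/M, which is a smaller share than the 13.7% of all genes, and Mcm3 higher at 2.13 (95% interval 1.79 to 2.52), against 15.4% of all genes higher. The EC to pericyte ratios were 1.01 (95% interval 0.972 to 1.06) and 0.746 (95% interval 0.722 to 0.77), and with barcodes under 4000 genes 18 members were lower, against 14.7% of all genes.

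The median log2 ratios over members were 1.86, 1.31, 0.53, -1.67 and -0.26 in T cell-, SMC-, myofibroblast-, matrix fibroblast- and EC-gated cells, beside 0.28, 0.03, 0.03, -0.28 and 0.01 over all genes. By role and over all barcodes, the MCM helicase genes of SMC-gated cells were 1.14 (Mcm6) to 1.64 times (Mcm5) the pericyte level, with 0 of 6 past the rule, whereas the spindle proteins and motors were 2.55 (Tacc3) to 4.49 times (Kif11), with 8 of 8 past it, against 13.4% of all genes. This contrast was not recomputed by role for barcodes under 4000 genes, where 1 member was higher in all. In T cell-gated cells both groups were higher, at 1.71 to 4.7 times (5 of 6) and 2.45 to 8.71 times (8 of 8), against 13.7% of all genes. In matrix fibroblast-gated cells they were 0.341 to 0.631 and 0.167 to 0.347 times the pericyte level.

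Of the S phase members in lung, Mcm3 was at 112, 40.1, 23.5, 25, 53.2 and 12.2 CPM in T cell-, SMC-, myofibroblast-, pericyte-, EC- and matrix fibroblast-gated cells, and 28.7 to 68.3 CPM in the other 3 lung classes. Mcm7 was at 185, 62.8, 44, 39.3, 34.1 and 15.2 CPM, and 40.2 to 92.7 in the other classes. Mcm7 stood highest in T cell-gated cells, and in all 48 of the 59 members did so among the classes of 50 or more cells. Gins2 was at 21.2, 28.6, 15.4, 12.4, 8.23 and 9.23 CPM, and 14.6 to 20.5 in the other classes, and its highest level was in SMC-gated cells. Cdc6 was at 15.2, 5.67, 2.84, 2.87, 3.41 and 1.05 CPM, and 0 to 4.88 in the other classes, on 5 UMIs in T cell-gated cells. Rrm2 was at 285, 64, 55.2, 25.8, 22.9 and 8.36 CPM, and 17.2 to 92.7 in the other classes. It had the largest T cell to pericyte ratio of all members, 11 (95% interval 8.65 to 14), and Tyms, in the same pathway, was at 146, 72.2, 51.3, 38.3, 49.4 and 20.9 CPM, and 23 to 122 in the other classes.

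Pcna was at 139.5, 36.5, 33.1, 34.5, 29.9 and 15.3 CPM in T cell-, SMC-, myofibroblast-, pericyte-, EC- and matrix fibroblast-gated cells, and 26.7 to 57.5 CPM in the other 3 lung classes. Rfc2 was at 60.7, 54.3, 38.3, 34, 37.5 and 27.3 CPM, and 40.2 to 68.3 in the other classes. Tipin was at 169.8, 103, 91.1, 64.4, 51 and 50.2 CPM, and 37 to 166 in the other classes. Levels of these fork genes differed less between lung classes than those of Rrm2, and Rfc2 had the narrowest range, its highest class of 50 or more cells being 2.22 times its lowest. Pola1 was at 60.7, 28.7, 24.7, 13.4, 13.8 and 9.06 CPM, and 18.5 to 40.2 in the other classes. Nasp was at 261, 156, 109.7, 85.2, 104 and 58.7 CPM, and 63.2 to 137 in the other classes. Cdca7 was at 146, 34.6, 20.5, 19.8, 10.2 and 6.97 CPM, and 11.5 to 24.4 in the other classes. Cdca7, the neuroblast exception in brain, was in lung highest in T cell-gated cells, with a ratio to pericytes of 7.37 (95% interval 5.28 to 10.1). E2f8 was at 39.4, 16.1, 12.8, 3.83, 4.01 and 0.871 CPM, and 0 to 14.6 in the other classes. Its T cell to pericyte ratio of 10.3 (95% interval 5.09 to 19.5) came from 13 UMIs.

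Of the G2/M members in lung, Top2a was at 698, 400.1, 270.0, 107, 81.9 and 25.8 CPM in T cell-, SMC-, myofibroblast-, pericyte-, EC- and matrix fibroblast-gated cells, and 197 to 419.6 CPM in the other 3 lung classes. Hmgb2 was at 752, 331, 184, 165, 141 and 35.9 CPM, and 149 to 273 in the other classes. Smc4 was at 643, 255, 177, 137, 108 and 57.7 CPM, and 191 to 307 in the other classes. These 3 were highest in T cell-gated cells, with ratios to pericytes of 6.5, 4.56 and 4.68. Cenpa was at 227, 184, 89.2, 94.6, 58.8 and 17.8 CPM, and 16.4 to 73.2 in the other classes. Cdca8 was at 167, 119, 66.7, 42.6, 27.1 and 8.36 CPM, and 51.7 to 92.7 in the other classes. Nuf2 was at 21.2, 19.9, 12.4, 9.05, 4.61 and 1.05 CPM, and 4.11 to 9.76 in the other classes, without the high class it had in brain.

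Over all barcodes, SMC-gated cells were the highest class of 50 or more cells for 10 members. In this class 72 barcodes with 4000 or more genes held 67.6% of the G2/M UMIs, whereas T cell-gated cells had 0 such barcodes. Without them the summed G2/M list was at 1486 CPM in SMC-gated cells, against 5116 CPM in T cell-gated cells. The levels of single members below are given over all barcodes only. Mki67 was at 234, 261, 172, 74.2, 49.8 and 20.7 CPM in T cell-, SMC-, myofibroblast-, pericyte-, EC- and matrix fibroblast-gated cells, and 127 to 229.8 CPM in the other 3 lung classes. Cenpf was at 230.5, 279, 139, 90.4, 59.2 and 21.6 CPM, and 55.5 to 184 in the other classes. Cenpe was at 69.8, 110.3, 54.6, 36.5, 26.3 and 9.06 CPM, and 39 to 109 in the other classes. The T cell-gated intervals of Mki67 (184 to 292 CPM) and Cenpf (182 to 288 CPM) included the SMC-gated level, and that of Cenpe (44.2 to 105 CPM) lay below it. Cdk1 was at 146, 219.5, 121, 73.5, 56.2 and 19.2 CPM, and 113 to 138 in the other classes. Ccnb1 was at 60.7, 65.6, 30.6, 18.4, 16.3 and 4.01 CPM, and 11.5 to 39 in the other classes. Kinase and cyclin had the same order of these 6 classes. Tpx2 was at 115, 125, 69.4, 46.8, 27.7 and 10.1 CPM, and 45.2 to 97.6 in the other classes. Hmmr was at 75.8, 85.8, 48.7, 30.9, 19.3 and 7.49 CPM, and 28.8 to 73.2 in the other classes. Ttk was at 12.1, 17, 11.6, 7.22, 6.22 and 1.74 CPM, and 4.11 to 28.7 in the other classes. Anln differed most between SMC- and T cell-gated cells among these genes, at 15.2, 64.9, 36.9, 23.8, 12 and 6.79 CPM, and 5.75 to 78.1 in the other classes, and its T cell to pericyte ratio was 0.638 (95% interval 0.206 to 1.51) on 5 UMIs.

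Barcodes with 4000 or more genes held a large part of the mitotic counts of both libraries. In brain they were 418 of 4569 barcodes (9.15%) with 25.2% of all UMIs, but 39% of S phase UMIs (95% interval 38.6 to 39.4%) and 49.7% of G2/M UMIs (95% interval 49.4 to 50.02%). In lung they were 307 of 5915 (5.19%) with 13.1% of all UMIs, 28.7% of S phase UMIs and 51.2% of G2/M UMIs (95% interval 50.8 to 51.5%). Of the thinned cells with at least 3 G2/M genes, 31.3% in brain and 29.7% in lung had 4000 or more genes, the range that the limit stated in the methods leaves out.

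Nearly all deep barcodes of the neuroblast class held several mitotic transcripts, and few of those of the oligodendrocyte classes did. In NB-gated cells 96.3% of the barcodes with 4000 or more genes held at least 3 G2/M genes, against 19.3% of the others, and in aNSC-gated cells the shares were 92.4 and 59.1%. They were 5.8 and 6.49% in OPC-gated and 2.11 and 3.26% in mOL-gated cells. In lung they were 77.8 and 9.51% in SMC-gated, 70.5 and 5.93% in myofibroblast-gated, 53.6 and 8.33% in pericyte-gated, and 16.7 and 3.67% in EC-gated cells. Of the few deep qNSC/astroglia-gated barcodes 5 of 8 held them, against 0.645% of the others, and of the deep mural-gated ones 2 of 2, against 0 of 133. The 95% intervals of deep and other barcodes overlapped in OPC- and mOL-gated cells and in none of the other classes given here.

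Member by member, 55 of 58 were higher past the rule in NB-gated barcodes with 4000 or more genes than in the other NB-gated ones, against 6.24% of all genes, with summed ratios of 2.38 (95% interval 2.32 to 2.45) for S and 3.7 (95% interval 3.64 to 3.76) for G2/M. In aNSC-gated cells 29 were higher (1 S phase and 28 G2/M), against 2.42% of all genes, with ratios of 1.3 (95% interval 1.26 to 1.34) and 2.49 (95% interval 2.44 to 2.54). In aNSC-gated cells the deep barcodes were thus richer in both lists, and more so in the mitotic one. Pericyte-gated cells had 45 higher (13 and 32), against 5.6% of all genes, and SMC-gated cells 48 (16 and 32), against 5.12%, with G2/M ratios of 5.47 (95% interval 5.24 to 5.71) and 8.6 (95% interval 8.36 to 8.86). The share of a member's brain UMIs in these barcodes ran from 25.8% (Cdca7) to 57.8% (Aurkb, the kinase of the passenger complex), and in lung, leaving out Fen1, from 19.7% (Slbp) to 62.2% (Kif11, the motor that separates spindle poles).

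In NB-gated cells the share was higher in each bin of more genes per barcode. Their share with at least 3 G2/M genes, all at 2000 UMIs, was 2.27% under 1500 genes, 4.68% from 1500, 8.01% from 2000, 27% from 2500, 65.6% from 3000, 83% from 3500 and 96.2% from 4000 to 5000. OPC-gated cells stayed between 2.78 and 10% in the bins with at least 20 cells, and pericyte-gated cells went from 6.33% at 2000 to 2500 genes to 58.3% at 4000 to 5000. Barcodes that pass 2 gates can hold 2 cells, and among those with 4000 or more genes they made up 53.3% in brain and 45.3% in lung, against 21.3 and 23.1% of the others. By class these shares were 24.4 against 11.4% in NB-gated, 24.2 against 39.4% in aNSC-gated, 94.2 against 60.1% in OPC-gated, 92.6 against 54.1% in mOL-gated and 68.1 against 58.4% in lung SMC-gated cells, so that aNSC-gated cells ran the other way. Among the NB-gated barcodes with 4000 or more genes, 61 of 62 with a single gate and 18 of 20 with more held at least 3 G2/M genes. The part of 2 cells in 1 barcode was not tested. In SMC-gated cells the numbers were 19 of 23 and 37 of 49.

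**Figure D5:**
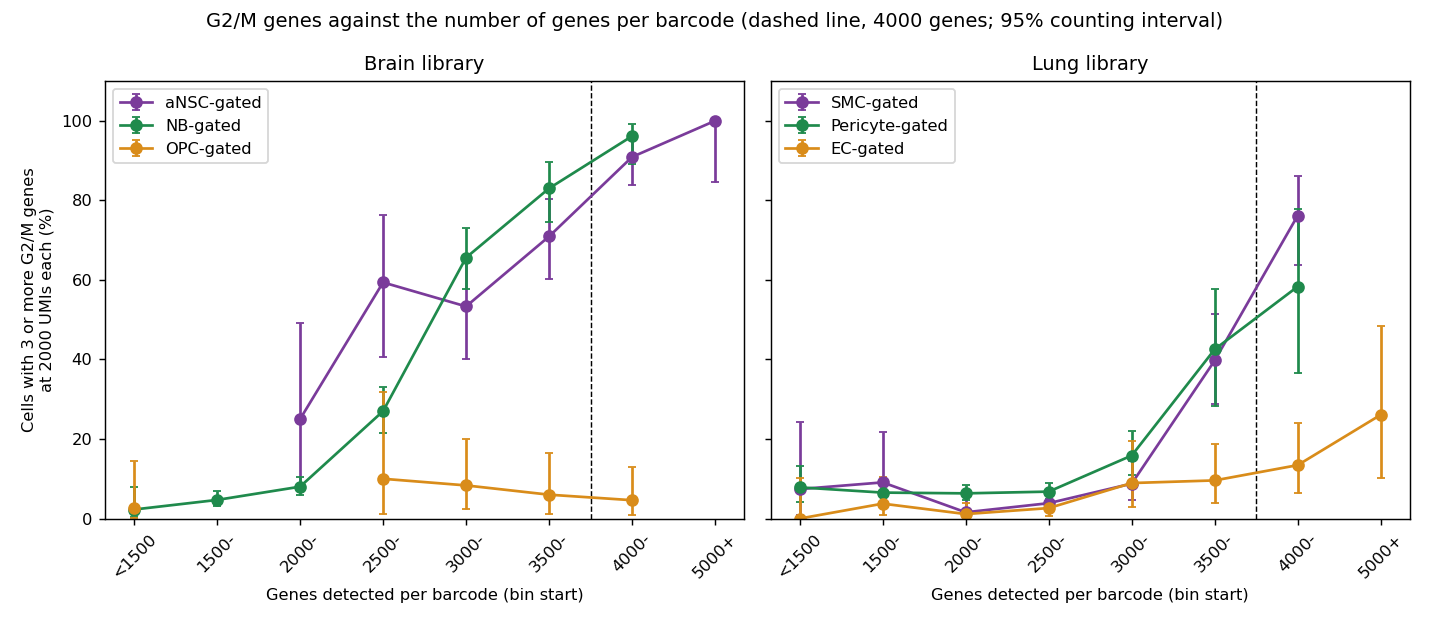
Share of thinned cells, in percent with exact 95% binomial intervals, that held at least 3 G2/M genes, by genes per barcode before thinning, for brain and lung classes, with bins of fewer than 20 cells left out and a dashed line at the stated limit of 4000 genes. The NB-gated line goes from 2.27% to 96.2%, while the OPC-gated points drawn stay at or under 10%.

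The genes that control the members were followed through 9 further lists of 86 genes, of which 84 were counted in each library. In aNSC-gated against qNSC/astroglia-gated cells, 6 of 7 G1 cyclins and kinases were higher past the rule, led by Cdk6 (35.2 times), cyclin E1 gene Ccne1 (13.1), cyclin D2 gene Ccnd2 (10.7) and Cdk4 (10.7). Of the E2F and DP factors 7 of 9 were higher, led by E2f7 (41), E2f2 (26.3), E2f1 (9.55) and Tfdp1 (7.06), and of the Rb family 1 of 3, Rbl1 (9.12). Of the late factors, a list of MuvB subunits, B-Myb, FoxM1 and MYC family factors, 5 of 8 were higher, led by Foxm1 (13.6), Mybl2 (9.28), Mycn (8.68) and Lin9 (7.38). These counts stand against 22.5% of all genes higher, and in these lists no gene was lower past the rule, against 22.7% of all genes.

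Several genes that restrain the cycle were also higher in aNSC-gated cells, in the comparison in which 22.5% of all genes were. Of the CDK inhibitors 5 of 7 were higher, among them Cdkn1c (18.3 times), Cdkn2c (5.76) and Cdkn2d (4.11), and Cdkn2a with 21 UMIs against 0. Of the growth arrest genes 3 of 6 were higher, Trp53 (5.0), Ccng2 (3.79) and Btg2 (2.79). Licensing and checkpoint genes were higher in 14 of 14 cases, led by Cks2 (36.2), Cdt1 (33.9), Cdc25c (22.2) and Fbxo5 (19.5). S phase genes outside the members were higher in 12 of 12 cases, among them Mcm10 (39.6), Pole (18.5) and Lig1 (17.1), and mitotic genes outside them in 19 of 19, led by Cenpm (37.7), Prc1 (32.9), Ect2 (31.3) and Spc24 (28.8).

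In NB-gated against aNSC-gated cells 5 of 7 G1 cyclins and kinases, 4 of 9 E2F and DP factors, 7 of 12 S phase genes and 7 of 19 mitotic genes were lower past the rule, against 11.6% of all genes. OPC-gated cells against qNSC/astroglia-gated cells had 4 of 6 growth arrest genes lower, against 17.8% of all genes, namely Btg2, Btg1, Gas1 and Ccng2, at 0.0736, 0.184, 0.203 and 0.439 times, and 1 of 6 CDK inhibitors higher, Cdkn1c at 45 times, against 20.6% of all genes higher. These genes were picked out after their values were seen. In lung, SMC-gated cells had 19 of 19 further mitotic and 7 of 12 further S phase genes higher than pericyte-gated cells, against 13.4% of all genes. T cell-gated cells had 13 and 10 of them higher, against 13.7%, and matrix fibroblast-gated cells had 18 mitotic and 6 S phase genes lower, against 16.5%. These lung counts are given over all barcodes only. With barcodes under 4000 genes 1 member was higher in SMC-gated than in pericyte-gated cells, against 12% of all genes.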

How the data were processed

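Single-cell libraries of sorted Nes-GFP+ cells from adult mouse brain and lung were made with 10x Chromium 3′ v3 chemistry, 1 library per tissue. The deposited tables hold UMI counts per gene and barcode, made by the authors with UMI-tools, STAR 2.7.1a and featureCounts 1.6.4 on mm10 per the submitters' processing notes. The annotation and the use of strand are not given in the sources used here. Symbols starting with U are not in the tables. Barcodes with more than 200 genes and under 40% mitochondrial counts were kept, with no upper limit, no doublet caller and no ambient correction.

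A barcode was scored for each class by the mean over markers of z-scored log values (counts per 10000, capped at 5). The highest class was taken if its score was at least 0.25 and at least 3 of its markers were detected (2 for aNSC). Counts were summed per class and divided by the class total (CPM). No test was possible with 1 library per group. Poisson, conditional binomial and Clopper-Pearson intervals (95%) cover counting error only. Shares came from cells thinned to 2000 UMIs, without replacement, with a fixed seed, in Python 3.11.15 (numpy 2.4.6, scipy 1.17.1, pandas 2.3.3), and the code was tested on simulated counts. The members and the gene lists were chosen with earlier results of these data known. The 29 named members were those with the most UMIs (6 S phase, 8 G2/M), with a peak outside aNSC, NB and OPC in brain or T cells in lung, with 20 CPM or more in mOL-gated cells, or with the 2 highest or lowest NB to aNSC or OPC to aNSC ratios. Members outside this rule that are named as the ends of a range were chosen after their values were seen. Gene positions are from GENCODE M21 and promoters from RefSeq on GRCm38.p6.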

Additional observations from a re-analysis of the deposited data

How the results depend on the processing

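With 1 library per tissue neither leaving out a replicate nor a fit with several samples could be made. No paired analysis was possible because each group has 1 library. Of the G2/M ratios, the counts of members and the shares of cells with at least 3 G2/M genes, 152 recomputed values moved by less than counting error or 1.5 times, 67 moved further and 1 reversed, and of the S ratios, levels and other shares 175 moved by less, 154 moved further and 1 S ratio reversed. The limit on genes per barcode and the barcodes of more than 1 gate moved the most values. With barcodes under 4000 genes, which were gated anew since marker scores are relative to the barcodes kept, the share of cells with at least 3 G2/M genes was 57% (aNSC) and 19.4% (NB). The G2/M ratios were 35.8 (aNSC to qNSC/astroglia), 26.3 (NB to qNSC/astroglia), 5.06 (OPC to qNSC/astroglia), 0.735 (NB to aNSC) and 0.142 (OPC to aNSC), and against pericytes 4.4 (T cell), 1.28 (SMC), 0.846 (myofibroblast, with the S ratio at 0.874, both reversed), 0.186 (matrix fibroblast) and 0.564 (EC). Members past the rule were then 37 (OPC higher than qNSC/astroglia), 16 (NB lower than aNSC), 1 (SMC higher), 0 (myofibroblast higher) and 18 (EC lower). Over all genes 22.5, 12.6, 12, 12.8 and 14.7% passed in the same order.

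Without barcodes that passed more than 1 gate the aNSC share was 77%, the G2/M ratios were 70.5, 33.8, 8.18, 0.479 and 0.116 in the same brain order, 2.41 (SMC), 0.204 (matrix fibroblast) and 0.669 (EC), 5 members were lower in EC (against 15% of all genes), and 17.1% of lung cells with at least 3 G2/M genes had 4000 or more genes. Leaving out Hmgb2, Smc4, Anln, Nasp, Slbp and Tipin gave shares of 64.1% (aNSC) and 20.5% (NB) and G2/M ratios of 27.5, 14.6 and 1.99 (aNSC, NB and OPC to qNSC/astroglia), 3.0 (SMC), 1.72 (myofibroblast) and 0.238 (matrix fibroblast). Setting the median ratio of all genes to 1 gave 22.4, 11.4, 1.44 and 0.552 for the first 4 brain ratios, 3.14 (T cell), 0.309 (matrix fibroblast) and 14 members higher in OPC (against 15.3% of all genes), as did asking for 50 UMIs (14, against 20.7%). One marker more per class gave 0.52 (NB to aNSC), 1.71 (myofibroblast) and 0.232 (matrix fibroblast), and a 10% mitochondrial limit 0.515 (NB to aNSC).

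Thinned to 1000 UMIs the shares were 62.2% (aNSC), 18.9% (NB) and 7.31% (pericyte), and thinned to 4000 UMIs 81.9, 38.2 and 12.2%. Asking for 2 genes gave 80.6, 30.9 and 13.9%, with 24.4% (brain) and 21.6% (lung) of such cells at 4000 or more genes, and asking for 4 genes gave 65 (aNSC) and 20.4% (NB). Over 20 further thinning draws the shares ran from 68.8 to 75% (aNSC), 22.2 to 23.2% (NB) and 27.5 to 33.3% (T cell). At a 4-fold limit the counts were 3 (OPC higher), 0 (NB lower), 25 (T cell), 4 (SMC), 0 (myofibroblast), 20 (matrix fibroblast lower) and 0 (EC lower), beside 8.45, 4.08, 7.35, 6.78, 7.09, 7.66 and 8.04% of all genes. The cause of these changes was not tested beyond what each alternative removes.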
